A study of Homo sapiens with 6 samples.

Results

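Centrioles and the centrosome are built from a defined set of structural and regulatory proteins, and 48 of their genes were followed here in MDA-MB-231 cells, a human triple-negative breast cancer (TNBC) cell line with mesenchymal features, after silencing of the kinase NEK2. The 48 genes are a named list and were matched by gene symbol to the 74852 gene rows of the deposited table, with 1 row for each gene. By role, 13 act in assembly of the new centriole, 4 in control of centriole number and length, 6 in the centriole lumen or the daughter centriole, 7 at the mother centriole and its appendages, 10 in the pericentriolar material and the gamma-tubulin ring complex, and 5 at centriolar satellites or the base of the cilium, while 3 are other genes of the CEP (centrosomal protein) series.

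The control cells (si-CTRL) received non-targeting siRNAs and the silenced cells (si-NEK2) received siRNAs against NEK2, in both groups by 2 rounds of lipid transfection. The sample records place the harvest 24 h after the second round. The methods of the study state a longer interval after transfection without naming the round, so the intervals may not share a starting point. PolyA-selected RNA of 3 samples per group was sequenced. All 6 samples come from the same line, the silencing is transient, and whether both groups were prepared in the same batch is not given in the sources used here. In GEO, each control is described by a reference to a further sample record, which is not so for the silenced samples, and the records and the methods name different RNA extraction kits. The records do not say that the samples of a group were grown as separate cultures, so the p-values below measure the spread between these samples, which may be technical.

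A cell normally forms a single new centriole beside each existing one in every cell cycle. The kinase PLK4 starts this process on the wall of the parent centriole, where CEP152 and CEP192 hold it; STIL and SASS6 then lay down the cartwheel that sets the symmetry of the new centriole, and CENPJ adds its microtubules. Centrioles gather pericentriolar material, in which gamma-tubulin ring complexes start microtubules, and the older centriole carries appendages that can anchor a cilium. NEK2 itself is a centrosomal kinase, known for releasing the fibrous linker that holds the parental centrioles together before mitosis.

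Sequencing depth was between 52625492 and 87454509 assigned reads per library, and 1 read was worth between 0.818 and 1.25 normalized counts (reads divided by the size factor of the library). NEK2 was measured at 3702, 3323 and 3290 normalized counts in the si-CTRL libraries and at 284, 362 and 388 in the si-NEK2 libraries, a log2 fold change of -3.32 (SE 0.12, n = 3 per group). NEK2 was thus low in each of the libraries labelled si-NEK2. The markers of the line were present, with VIM between 134282 and 173162 normalized counts, and ESR1, PGR, CDH1 and EPCAM did not exceed 15.2 in any library, while ERBB2 was between 2455 and 4085. Of 6 markers of blood and endothelial cells, none exceeded 25.4. In a principal component analysis, the first component (61.7% of the variance) separated the groups, and on the second (16.2%) the first control library, si-CTRL replicate 1, lay apart from the others. For the 48 genes, values that this library moved by over 1.5 times are given with and without it.

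Of the 48 centriole and centrosome genes, all passed the filter on low values (a mean of 10 normalized counts or more), with means between 499 and 11134. A gene is called regulated below where the p-value of limma was 0.05 or less and the change 1.5-fold or more. It is called changed, higher or lower, where the p-value adjusted after Benjamini and Hochberg over all 18717 genes tested was 0.05 or less, whatever the fold. Only 5 of the 48 (10.4%) were regulated, against 22.5% of all genes tested: CEP76 and CEP44 above the controls, and CEP55, CEP170 and CEP290 below them. Of the 2 above, 1 was still regulated without any 1 si-NEK2 library and 0 without si-CTRL replicate 1, while the 3 below stayed regulated throughout. The direction-specific backgrounds were 8.23% of genes for higher and 14.3% for lower. CEP55 had the largest change of the list, to 34% of its control level.

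By adjusted p, 20 genes (41.7%) changed, close to the 43.1% of all genes tested, with 13 higher and 7 lower where the background was 21.8% higher and 21.3% lower. The median log2 fold change of the list was 0.05 (all genes tested 0.01), and the median size of the change without its sign was 0.24 (all genes 0.33). The groups did not overlap for 27 of the 48 (56.2%), 17 with si-NEK2 above and 10 with si-NEK2 below, against 55% of all genes, 28.2% above and 26.9% below. The share of higher genes among those that changed depended on the scaling of the libraries. It was 65% of 20 with the deposited size factors (50.6% among all genes that changed) and 75% of 20 with upper quartile scaling (all genes 55.2%). After quantile normalization it was 52.2% of 23 (all genes 52.5%). It was 31.8% of 22 when the libraries were scaled to equal totals (all genes 32.9%), which moved the median of all genes from 0.01 to -0.11. In the last 2 settings the list was thus close to all genes. None of the 20 genes of the list that changed reversed its direction in any of the 18 alternative settings. Of these 20, 12 passed the adjusted p in all 18: PLK4, CEP192, CEP85, SPICE1, CEP76, CEP350 and AKAP9 on the higher side, and CEP55, CEP170, CEP290, CCP110 and CEP70 on the lower side. Of the other 8, STIL, CETN2, TUBGCP3, TUBGCP5, NEDD1 and PCM1 lost the call with equal total scaling (limma adjusted p of 0.055 to 0.434). CEP63 and ODF2 lost it when a si-NEK2 library was left out. With all libraries, both also lost it with no filter, upper quartile scaling or eBayes without a trend (limma adjusted p of 0.0559 to 0.0992). For CEP63 it was lost with a replicate block as well (limma adjusted p = 0.0630). In bulk RNA, a smaller share of cells in a given state and less RNA per cell cannot be told apart.

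**Figure D1:**
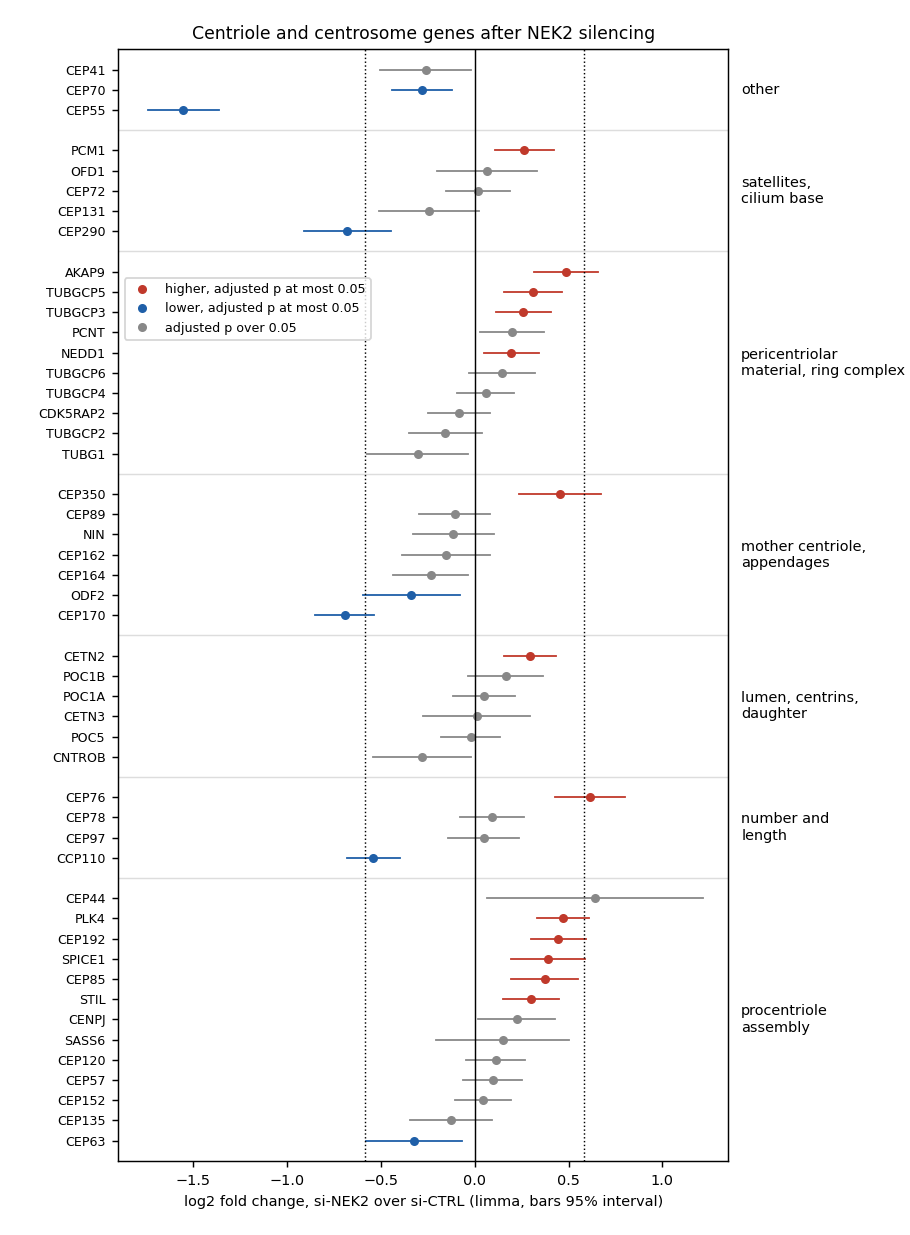
Log2 fold change of each of the 48 genes, si-NEK2 over si-CTRL, on the horizontal axis, with the genes grouped by role; points are limma estimates on log2(normalized count + 1), bars their 95% intervals (3 libraries per group), and dotted lines mark a 1.5-fold change. CEP55, at -1.55, lies far to the left of all others, 13 genes are coloured as higher and 7 as lower, and with equal total scaling these counts were 7 and 15. The share of higher genes among those that changed was then 31.8%, against 32.9% for all genes tested, and with the deposited size factors it was 65% against 50.6%.

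Promoters of the genes were read from RefSeq (GRCh38.p14), as the 250 bases before and 50 bases after each annotated start. A promoter was at hand for 42 of the 48 genes (58 promoters), and not for CENPJ, CEP78, CETN3, PCM1, SPICE1 and TUBGCP4. They were searched on both strands for motifs found in promoters of many cell cycle genes, namely the CHR element (TTTGAA), the CCAAT box (CCAAT) and E2F-type sites, for which the letters TTCCCGC were searched together with the variant TTGGCGC, the further variant TTCGCGC and the variant TTGCCGC. The E2F-type letters were present for 20 of the 42 genes (47.6%), against 13% of all 35116 promoters and 24.2% of the 11110 tested genes that had one. CHR was present for 15 (35.7%, against 15.2% and 13.7%), and the CCAAT box for 22 (52.4%, against 34.6% and 42.7%). With the 250 bases before the start alone, CHR was present for 8 genes (19%, against 13.3% of all promoters and 12.1% of tested genes). In that window E2F-type sites were present for 19 (45.2%, against 10.9% and 20.7%) and the CCAAT box for 22 (52.4%, against 32% and 41%). E2F-type letters were found in 9 of the 11 higher genes with a promoter, 4 of the 7 lower and 7 of the 24 that did not pass the test, and CHR in 4, 2 and 9 of them. A match to such short letters is a description and not a binding site, and motifs may overlap.

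Windows of 25 bases around matches are printed below for genes that the results turn on, on the strand of the gene, with the matched motif in capitals, so that a match on the other strand appears as the reverse complement of the motif. PLK4, CEP192 and CEP55, like CEP57 and CEP152, held all 3 kinds of motif, and in CETN2 a CCAAT box and an E2F-type match shared bases.
PLK4 CHR, chr4:127880918-127880942, plus strand: gcggcgggagattTTCAAAatggga
PLK4 CCAAT box, chr4:127881535-127881559, plus strand: gctcccggggATTGGctggagatgg
PLK4 E2F-type, chr4:127881035-127881059, plus strand: gcctgatggGCGCCAAggccggctg
STIL E2F-type, chr1:47314130-47314154, minus strand: ccgcctcagTTCCCGCgaccccaac
CEP192 CHR, chr18:12991159-12991183, plus strand: cttcctcgcTTCAAAtccaggaacg
CEP192 E2F-type, chr18:12991202-12991226, plus strand: ccgggcttcTTCCCGCcccatgtct
CEP76 CHR, chr18:12702744-12702768, minus strand: ccgccactgTTTGAAaacagttggc
CEP76 E2F-type, chr18:12702733-12702757, minus strand: tgaaaacagTTGGCGCcgccgccgc
CETN2 E2F-type, chrX:152830938-152830962, minus strand: ctcagccaaTTGGCGCtcacggcgt
CEP55 CHR, chr10:93496600-93496624, plus strand: gccgcgggaTTCAAActcccggaag
CEP55 CCAAT box, chr10:93496500-93496524, plus strand: aaggcggcagCCAATcggggagccg
CEP55 E2F-type, chr10:93496418-93496442, plus strand: gaggaagtgTTCCCGCcctctgtcc
CEP290 CHR, chr12:88142200-88142224, minus strand: actctgggaTTTGAAgtcctcgttc
CEP170 E2F-type, chr1:243255499-243255523, minus strand: cacttggagTTGGCGCtctgcccgc
All 3 kinds of motif were thus present both in genes that were higher (PLK4 and CEP192) and in a gene that was lower (CEP55), in 1 promoter each for CEP192 and CEP55 but for PLK4 in 3 different annotated promoters.

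Among the 13 genes of procentriole assembly, 5 were higher (PLK4, STIL, CEP192, CEP85 and SPICE1), 1 was lower (CEP63) and 7 did not pass the adjusted p. The start kinase PLK4 (chr4:128802016-128820379; gene positions from here on are those of the deposited table, hg19) was at 4347, 4463 and 4382 normalized counts in si-CTRL and at 5855, 6210 and 6203 in si-NEK2. Each silenced library exceeded each control, and the controls differed from each other by far less than from the silenced libraries. The log2 fold change was 0.47 (SE 0.06, limma adjusted p = 0.000417), a mean 1.38 times that of the controls.

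CEP192 (chr18:12991361-13125049), a scaffold that brings PLK4 to the parent centriole, was at 3432, 3693 and 3714 in si-CTRL and at 4828, 5009 and 4923 in si-NEK2 (log2 fold change 0.45, SE 0.06, limma adjusted p = 0.000714). STIL (chr1:47715811-47779819), which activates PLK4 and recruits SASS6, was at 5678, 5191 and 5268 against 6341, 6793 and 6741 (0.30, SE 0.07, limma adjusted p = 0.00621). Both groups were separate for these genes. CEP85, a STIL-binding protein, and SPICE1, which acts in centriole elongation, had log2 fold changes of 0.37 and 0.39, from means of 969 ± 31.9 and 445 ± 11.2 (SD, n = 3) to 1256 ± 69.6 and 584 ± 21.2.

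The other receptor of PLK4 did not pass the test. CEP152 (chr15:49030132-49103349), which hands PLK4 to the site of assembly, was at 2251, 2170 and 2197 in si-CTRL and at 2187, 2318 and 2314 in si-NEK2, so that the groups overlapped. Its log2 fold change was 0.04, with a 95% interval from -0.11 to 0.19. CENPJ (chr13:25456414-25497027), which adds the microtubules of the new centriole, was at 1021, 849 and 942 against 1115, 1058 and 1102. These groups did not overlap, but the log2 fold change of 0.22 did not pass the adjusted p (0.0735 by limma).

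SASS6 (chr1:100549104-100598651), the building block of the cartwheel, was at 2496, 1612 and 1625 in si-CTRL and at 2041, 2153 and 2024 in si-NEK2. The first control stood above every silenced library and the other controls below every one. With all libraries the log2 fold change was 0.15 (95% interval -0.21 to 0.50, limma adjusted p = 0.48). Without si-CTRL replicate 1 it was 0.36, with an adjusted p of 0.000829, in a range from 0.000481 to 0.932 over the alternatives.

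CEP44 (chr4:175204828-175254531), a centriolar protein needed for the centriole to become a centrosome, was at 590, 1259 and 1209 in si-CTRL and at 1454, 1643 and 1428 in si-NEK2. It met the rule for regulated genes at a log2 fold change of 0.64 (SE 0.25), but its limma adjusted p was 0.0701. The size of this change rested on si-CTRL replicate 1, which was at 47.8% of the mean of the other controls: without it the log2 fold change was 0.29, under 1.5-fold, with an adjusted p of 0.0119 (0.00435 to 0.186 over the alternatives). It also passed the adjusted p without si-CTRL replicate 2 or 3 (0.0338 and 0.0497). The row of CEP44 overlaps that of FBXO8 by 588 bases, and FBXO8 had a log2 fold change of 1.04.

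CEP63, the partner of CEP152, was lower, at 2580, 1918 and 1966 in si-CTRL and 1692, 1693 and 1732 in si-NEK2. The first control was again the farthest from the silenced libraries, and the log2 fold change of -0.32 became -0.19 without it. The call for CEP63 was also lost without any 1 of the si-NEK2 libraries (limma adjusted p of 0.0906 to 0.123, range 0.0109 to 0.123 over all alternatives). The row of CEP63 overlaps that of ANAPC13 by 291 bases, and ANAPC13, at a mean of 9961 normalized counts against 1930 for CEP63, was also lower (log2 fold change -0.26, limma adjusted p = 0.0197). Shared reads were not tested. The remaining genes of this role, CEP135, CEP57 and CEP120, had log2 fold changes of -0.13, 0.10 and 0.11.

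**Figure D2:**
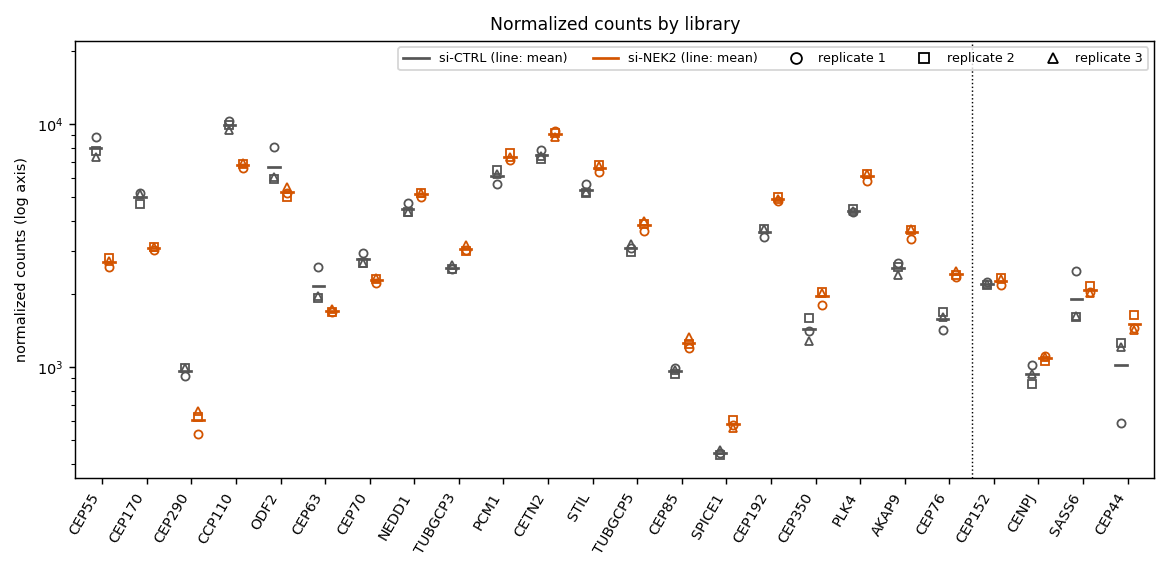
Normalized counts (log axis) in each library for the 20 genes that changed, ordered by log2 fold change, and, right of the dotted line, for CEP152, CENPJ, SASS6 and CEP44; grey symbols are si-CTRL, orange symbols si-NEK2, shapes the replicates and short lines the group means of 3 libraries. Groups are separate for each of the 20 genes, and si-CTRL replicate 1 (grey circle) lies away from the other controls for CEP44 (590 against 1259 and 1209) and SASS6 (2496 against 1612 and 1625).

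The 4 genes that limit centriole number and length moved in different directions, with 1 higher, 1 lower and 2 that did not pass the test. CCP110 (chr16:19535179-19564730) encodes the cap of the distal end of the centriole, which restrains its length and blocks cilium formation. It was at 10317, 9870 and 9491 in si-CTRL and at 6623, 6856 and 6914 in si-NEK2, or 68.7% of the control mean (log2 fold change -0.54, SE 0.06, limma adjusted p = 0.000221). Its binding partner at the cap, CEP97, was at 1257, 1373 and 1200 against 1246, 1371 and 1341. The values of CEP97 overlapped, with a log2 fold change of 0.05 (95% interval -0.14 to 0.24).

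CEP76 (chr18:12661955-12702776), which binds CCP110 and prevents repeated duplication, was at 1429, 1692 and 1615 in si-CTRL and at 2347, 2402 and 2477 in si-NEK2. It had a log2 fold change of 0.61 (SE 0.08, limma adjusted p = 0.000498) and was the only gene of the list both regulated and changed on the higher side. Without si-CTRL replicate 1 the log2 fold change was 0.54, below 1.5-fold, so that no gene of the list remained regulated on the higher side, while its adjusted p was at most 0.00479 in every alternative run. The row of CEP76 lies within that of PSMG2 (overlap of 40822 bases, log2 fold change of PSMG2 0.45), and shared reads were not tested. CEP78, at the distal end of the centriole, had a log2 fold change of 0.09.

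Of the 6 genes of the centriole lumen and the daughter centriole, 1 was higher and none was lower. The calcium-binding centrin CETN2 (chrX:151995859-151999301) was at 7791, 7176 and 7366 in si-CTRL and at 9318, 9204 and 8864 in si-NEK2. The groups were well separated (log2 fold change 0.29, SE 0.06, limma adjusted p = 0.00503). Its relative CETN3 was at 2178, 2850 and 3140 against 2766, 2780 and 2592. Here the controls spanned all silenced libraries, and the log2 fold change of 0.01 became -0.14 without si-CTRL replicate 1.

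Of the other genes of the lumen, POC5, which binds centrin, and POC1A, which stabilises centrioles, had log2 fold changes of -0.02 and 0.05 (-0.06 and 0.03 without si-CTRL replicate 1). For POC1B, whose row is shared with GALNT4 and cannot be assigned to either gene, it was 0.16, and for the daughter centriole protein CNTROB -0.28, or -0.15 without si-CTRL replicate 1. None of these passed the adjusted p with all libraries (0.0806 to 0.823 by limma), and POC1B passed it without si-CTRL replicate 1 (log2 fold change 0.22, adjusted p 0.0379, in a range from 0.0379 to 0.761). CNTROB passed with DESeq2 (0.0431), with equal total and quantile scaling (0.0200 and 0.0342) and without both si-CTRL replicate 1 and si-NEK2 replicate 3 (0.00533), in a range up to 0.221.

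At the mother centriole, 2 of 7 genes were lower, 1 was higher and 4 did not pass the test. CEP170 (chr1:243287731-243418708), a protein of the subdistal appendages, was at 5204, 4670 and 5151 in si-CTRL and at 3027, 3135 and 3113 in si-NEK2. All silenced libraries lay close together at 61.7% of the control mean (log2 fold change -0.69, SE 0.07, limma adjusted p = 0.000105). CEP170 has a near-identical pseudogene copy elsewhere in the genome, so that reads could be split between them.

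ODF2, which is needed for both kinds of appendage, was at 8046, 5961 and 6057 against 5228, 5001 and 5505 (log2 fold change -0.34, limma adjusted p = 0.0399). The first control was the highest, and the log2 fold change was -0.20 without it (adjusted p 0.0128, range 0.0029 to 0.134). As for CEP63, the call was lost without any 1 of the si-NEK2 libraries (limma adjusted p of 0.0625 to 0.134).

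CEP350 (chr1:179923908-180093893), a large centriolar protein that binds microtubules, was at 1414, 1591 and 1284 in si-CTRL and at 1811, 2033 and 2025 in si-NEK2, a log2 fold change of 0.46 (SE 0.10, limma adjusted p = 0.00513). It thus moved against CEP170. None of the other 4 genes passed the test. CEP164, of the distal appendages, was at 1105, 969 and 960 against 845, 831 and 898, so that the groups did not overlap. Its log2 fold change was -0.23 (limma adjusted p = 0.059), and it passed with edgeR and DESeq2 (0.0431 and 0.0385, range 0.0101 to 0.185 over the alternatives). The values of the rest depended on si-CTRL replicate 1. With all libraries and without it, the log2 fold change was -0.11 and -0.05 for CEP89, also of the distal appendages, -0.11 and -0.01 for the subdistal appendage protein NIN, and -0.15 and -0.05 for CEP162, which acts at the cilium base.

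In the pericentriolar material and the gamma-tubulin ring complex, 4 of 10 genes were higher, none was lower and 6 did not pass the test, and none reached 1.5-fold. AKAP9 (chr7:91570189-91739989), a scaffold of the centrosome and the Golgi, was at 2686, 2584 and 2401 in si-CTRL and at 3354, 3676 and 3715 in si-NEK2. With separate groups, its log2 fold change was 0.49 (SE 0.08, limma adjusted p = 0.00105). The ring complex subunits TUBGCP5 and TUBGCP3 had log2 fold changes of 0.31 and 0.26, from means of 3087 ± 120 and 2560 ± 55.1 to 3830 ± 183 and 3066 ± 94.7 (SD, n = 3).

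NEDD1, the adaptor that recruits the ring complex, had the smallest change that passed, 0.20 (limma adjusted p = 0.0371), and lost the call without any 1 library other than si-CTRL replicate 1 (0.0792 to 0.129, range 0.00244 to 0.434 over all alternatives). TUBGCP3 lost it without si-NEK2 replicate 3 (0.0526, range 0.00373 to 0.134 over the alternatives). The subunits TUBGCP2, TUBGCP4 and TUBGCP6 had log2 fold changes of -0.16, 0.06 and 0.15, and of -0.07, 0.07 and 0.09 without si-CTRL replicate 1. Whether these subunits differed from TUBGCP3 and TUBGCP5 was not tested.

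TUBG1 (chr17:40761358-40767254), which encodes gamma-tubulin itself, was at 12505, 9172 and 9082 in si-CTRL and at 7938, 8200 and 8509 in si-NEK2. All silenced libraries were below all controls, and the first control was at 137% of the mean of the other controls. The log2 fold change was -0.30 (limma adjusted p = 0.0661) with all libraries and -0.15 without si-CTRL replicate 1 (0.024, range 0.00992 to 0.173), and it passed as well without si-CTRL replicate 2 or 3 (0.0483 and 0.0449). With all libraries TUBG1 passed with edgeR and DESeq2 (0.0472 and 0.0267) and with equal total and quantile scaling (limma adjusted p of 0.0166 and 0.0197). Reads of TUBG1 and its near-identical copy TUBG2 may be exchanged, and its row overlaps FAM134C (1284 bases), which had a log2 fold change of 1.02. The scaffolds PCNT and CDK5RAP2 had log2 fold changes of 0.20 and -0.08 (0.22 and -0.04 without si-CTRL replicate 1). For PCNT the groups did not overlap (2530, 2520 and 2268 against 2724, 2714 and 2947), and the limma adjusted p was 0.0624.

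Of 5 genes of centriolar satellites and the cilium base, 1 was higher and 1 was lower. CEP290 (chr12:88442791-88535993), which forms the gate at the cilium base, was at 920, 989 and 992 in si-CTRL and at 532, 624 and 660 in si-NEK2. All silenced libraries were well below the controls, at 62.6% of their mean (log2 fold change -0.68, SE 0.10, limma adjusted p = 0.00087). The row overlaps that of C12orf29 by 1146 bases, and C12orf29 had a log2 fold change of 0.30.

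PCM1, the scaffold of the satellites, was at 5663, 6441 and 6235 against 7117, 7580 and 7316, a log2 fold change of 0.27 (limma adjusted p = 0.0144). The call for PCM1 was lost without si-NEK2 replicate 2 (0.0743, range 0.00545 to 0.154 over the alternatives). PCM1 and CEP290 thus moved in opposite directions. The satellite proteins CEP131, OFD1 and CEP72 had log2 fold changes of -0.24, 0.06 and 0.02, and CEP131 passed without si-NEK2 replicate 1 (-0.36, limma adjusted p = 0.0343, range 0.0296 to 0.382) and was at -0.13 without si-NEK2 replicate 3. Without si-CTRL replicate 1, OFD1 and CEP72 were at 0.16 and 0.05.

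CEP55 (chr10:95256369-95325718) had the largest change of the 48. Despite its name, its protein is known for its work at the midbody, where it recruits the machinery that cuts dividing cells apart. It was at 8878, 7717 and 7343 normalized counts in si-CTRL and at 2593, 2802 and 2740 in si-NEK2. Even the highest silenced library was far below the lowest control, with a log2 fold change of -1.55 (SE 0.08, 95% interval -1.74 to -1.36, limma adjusted p = 6.51e-06), a 2.94-fold lower mean, and -1.47 without si-CTRL replicate 1. CEP70, which binds gamma-tubulin and microtubules, was at 2950, 2687 and 2694 against 2229, 2300 and 2321, also with separate groups (-0.28, SE 0.07, limma adjusted p = 0.0108). CEP41, which acts in tubulin modification in cilia, had a log2 fold change of -0.26 (limma adjusted p = 0.077).

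Because si-CTRL replicate 1 stood apart, the 48 genes were also tested without it. That library lay farther from the other controls than these did from each other for 35 of the 48 genes (72.9%; 66.3% of all genes tested). It held 47.8% (CEP44) to 154% (SASS6) of the mean of the other controls. Without it, 28 of the 48 genes changed (19 higher and 9 lower), where 49.9% of all genes did. All 20 earlier calls were kept, and POC1B, SASS6, CENPJ, CEP44, CEP57, PCNT (higher), CEP41 and TUBG1 (lower) were added. Without si-NEK2 replicate 3 as well, 27 changed (17 higher and 10 lower), where 50.7% of all genes did.

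**Figure D3:**
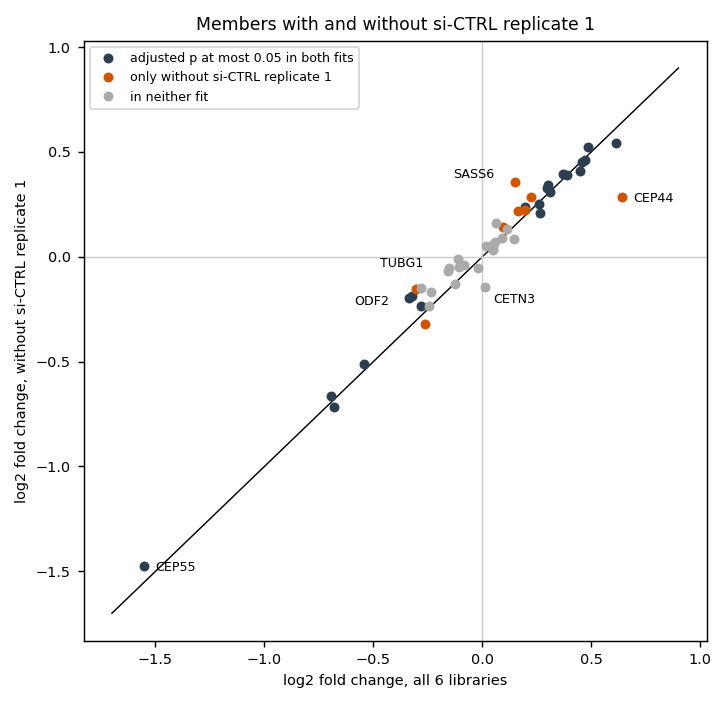
Log2 fold change of each of the 48 genes with all 6 libraries (horizontal) and without si-CTRL replicate 1 (vertical), both from limma; the line marks equal values and the colours show in which fit the adjusted p was at most 0.05. Most points lie near the line, CEP44 falls from 0.64 to 0.29, SASS6 rises from 0.15 to 0.36, and CETN3 goes from 0.01 to -0.14.

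The abundance of the transcripts was compared per kilobase of exon, with the union of a gene's exons in GENCODE 29 (basic set) as its length. The deposited values follow the FAST DB gene annotation, whose exons may differ, so the order of the genes also depends on these lengths. In si-CTRL, TUBG1 had the highest level (6364 ± 1211 normalized counts per kilobase, SD, n = 3), followed by CETN2 (5120 ± 217) and CEP55 (3025 ± 303). TUBG1 and CETN2 differed by about the spread of TUBG1. The lowest levels were those of CEP41 (57.4 ± 4.06) and SPICE1 (82.2 ± 2.07). The core duplication factors ranged from CENPJ (178 ± 16.3) to PLK4 (1105 ± 15), with CEP152 at 328 ± 6.15, CEP192 at 453 ± 19.7, SASS6 at 492 ± 131 and STIL at 1029 ± 50.1, and CEP192 and SASS6 were within the spread of the latter. In si-NEK2, CEP55 was at 1028 ± 40.9 per kilobase.

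**Figure D4:**
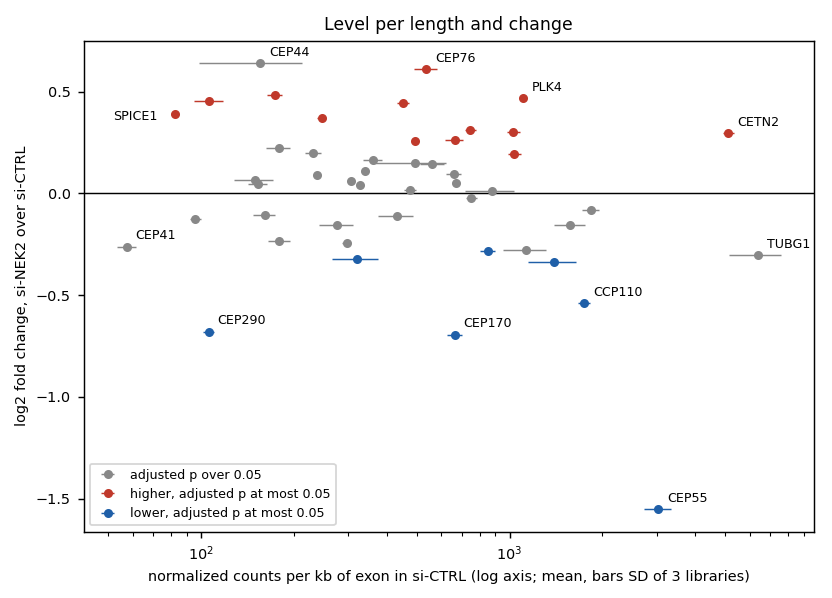
Level in si-CTRL per kilobase of exon (log axis, mean with SD of 3 libraries) against the log2 fold change, si-NEK2 over si-CTRL (limma), for the 48 genes. Genes that changed are found at low and at high levels, from SPICE1 (82.2 normalized counts per kilobase) to CETN2 (5120).

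Of 38 further centrosome genes listed for comparison, 37 were found in the table and tested. Among them 6 were higher and 4 lower by adjusted p (27%, against 43.1% of all genes), with a median log2 fold change of 0.03. The largest named here were decreases of CEP126 (-1.14), which acts at centrosomes and cilia, of MZT1 (-1.10), a small subunit of the gamma-tubulin ring complex, and of SSX2IP (-1.09), a satellite protein. CEP85L was among those that were higher (0.46). SSX2IP was at 2493, 2624 and 2560 in si-CTRL and at 1134, 1207 and 1257 in si-NEK2, with no overlap. MZT1 was at 2578, 5172 and 5284 against 2004, 2051 and 1756, with the first control nearer to the silenced libraries than to the other controls. Its log2 fold change was -1.43 without si-CTRL replicate 1. The number of further genes called higher ranged from 3 to 9 when any 1 library was left out, with 3 without si-NEK2 replicate 1 or 2.

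Transcripts of several centriole genes vary over the cell cycle, so lists of cycle genes were measured beside them. Of 17 genes of G2 and mitosis, 11 were higher and 2 lower (76.5% changed, median log2 fold change 0.26), and of 14 genes of S phase, 2 were higher and 6 lower (57.1%, median -0.02), where 21.8% of all genes were higher and 21.3% lower (43.1%). The mitotic cyclin CCNB1 was at 14856, 18684 and 18967 in si-CTRL and at 25436, 26460 and 26325 in si-NEK2 (log2 fold change 0.58), and its kinase CDK1 had a log2 fold change of 0.37. Without si-CTRL replicate 1 these changes were 0.47 and 0.27. CDK1 lost the call with equal total scaling and quantile normalization (limma adjusted p of 0.0589 and 0.0651). In contrast, the 2 lower genes of the G2 and mitosis list were TPX2 and the mitotic kinase PLK1. TPX2, named after its values were seen, was at -0.40 (limma adjusted p = 0.00667), and at -0.30 without si-CTRL replicate 1. PLK1 was at -0.23, a call lost without si-CTRL replicate 2 or any 1 si-NEK2 library (limma adjusted p of 0.064 to 0.136). With all libraries, PLK1 also lost the call with no filter, upper quartile scaling, eBayes without a trend or a replicate block (limma adjusted p of 0.0588 to 0.0887). The proliferation marker MKI67 was at -0.25 without passing the test (limma adjusted p = 0.148). It passed without si-CTRL replicate 3 (-0.39, limma adjusted p = 0.021, range 0.021 to 0.364), while without si-CTRL replicate 1 it was at -0.12 (0.31). Of S phase genes, CCNE2, the cyclin that starts S phase, was higher (0.46), while the replication helicase subunit MCM2 and the transcription factor E2F1 had log2 fold changes of 0.04 and 0.06. Other subunits of this helicase, MCM5 (-0.39), MCM3 (-0.36) and MCM7 (-0.22), were lower, as were CDC45 (-0.30) and RRM2 (-0.23). The subunits MCM4 (-0.01) and MCM6 (-0.02) did not pass the test, nor did CDC6 (-0.01) and TYMS (-0.02), and PCNA was higher (0.23, limma adjusted p = 0.0122). The related cyclin CCNE1, named like these after the values were seen, was lower, at 446, 356 and 415 in si-CTRL and at 62.2, 52.4 and 81.1 in si-NEK2 (log2 fold change -2.64, SE 0.18). PLK4, STIL and CEP192 thus moved in the direction of most of the G2 and mitosis list and CEP55 against it. The part of the cell cycle in the changes of the centriole genes was not tested.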

How the data were processed

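PolyA-selected RNA of MDA-MB-231 cells was sequenced with a stranded kit (3 si-CTRL and 3 si-NEK2 libraries). Per the submitters' processing notes, STAR 2.4.0, FastQC, Picard, SAMtools and DESeq2 were used with hg19; the read counter, its strand setting and the role of each tool are not given in the sources used here, so that overlapping genes may share reads. The authors deposited 1 signal value per gene and library, that is reads divided by the DESeq2 size factor, with FAST DB gene annotation. Of the values, 100% were whole multiples of 1 read (tolerance 0.05 reads), which gave back the counts. Of 74852 genes, 51665 had no symbol and 1045 had several.

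Genes with a mean of at least 10 were tested with limma 3.58.1 (R 4.3.3) on log2(value + 1) with an intensity trend, two-sided. On this scale, changes of low genes are understated. Library labels gave the groups. The 48 genes, the other lists and the tests were chosen with earlier results of these data known. Named are NEK2, the core duplication factors PLK4, STIL, SASS6, CENPJ, CEP152 and CEP192, every regulated gene with its values by library, the other members with their log2 fold change, the 5 largest changes among the further centrosome genes (1 of them is not reported here), and 7 cell cycle genes; the libraries' values of CEP63, CEP164, CEP70, CEP97, CETN2, CETN3, AKAP9, ODF2, PCM1, PCNT, TUBG1, CEP350, CCP110, SSX2IP, MZT1 and CCNB1, the S phase genes CCNE1, MCM3, MCM5, MCM7, CDC45 and RRM2, and the genes that overlap members, were added after their values were seen. The settings varied were the pseudocount (0.1 and 5), the filter (none, or a mean of 50), the scaling (upper quartile, equal total, quantile), the trend (eBayes without it), a replicate block, the 6 libraries (each left out) and the tool (edgeR 4.0.16 and DESeq2 1.42.0 on the recovered reads). The scripts were tested on simulated data in which 200 of 18717 genes were changed. Of the genes called there, 8.08% were false with limma, 8.96% with edgeR and 18.3% with DESeq2. In these data 43.1% of genes passed the adjusted p with limma, far more than were changed in the simulation. The shares of false calls may therefore not carry over, and they do not rank the tools here.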

Additional observations from a re-analysis of the deposited data

How the results depend on the processing

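Under the 18 alternatives, of which leaving out both si-CTRL replicate 1 and si-NEK2 replicate 3 was chosen after seeing the data, NEK2 stayed between -3.45 and -3.19 on the log2 scale, and the 3 members called lower by p and fold were 3, or 4 with equal total or quantile scaling. The 2 called higher were 0 with equal total scaling and with both libraries left out, 1 with eBayes without a trend, edgeR or DESeq2, and 0 to 2 when 1 library was left out. With upper quartile scaling the median log2 fold change was 0.0898 for the members, 0.0128 for S phase genes and 0.29 for G2 and mitosis genes. With equal total scaling 7 members were higher and 15 lower by adjusted p, and 3 and 7 of the further centrosome genes were. Of all 18717 genes tested, 2580 were higher and 5262 lower in that setting. The medians of the members, the S phase genes and the G2 and mitosis genes were then -0.0738, -0.15 and 0.13. After quantile normalization 12 members were higher and 11 lower, where 3943 and 3565 of all genes tested were, and the cell cycle medians were -0.16 and 0.16. When 1 library was left out, the further genes called higher ranged from 3 to 9 and the S phase median from -0.0454 to -0.0153; with both left out, they were 11 and the S phase median -0.0467. CHR was found for 8 genes with 250 bases. No pairing of the samples by replicate number was seen (correlations of the deviations of -0.09, 0.05 and -0.15 for equal numbers, and no sample correlated best with its own number). With 3 libraries per group these correlations cannot exclude that equal numbers were handled together. With the replicate block 13 members were higher and 6 lower, where 36.8% of all genes changed.

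Changes of sign concerned 11 members and 2 cell cycle genes that did not pass the test. With equal total scaling these were CEP72 (-0.11), OFD1 (-0.0643), CETN3 (-0.12), POC1A (-0.0782), CEP97 (-0.0797), CEP78 (-0.036), TUBGCP4 (-0.0694), CEP152 (-0.0851), CEP57 (-0.0322), CEP120 (-0.0169), MCM2 (-0.0871) and E2F1 (-0.066). After quantile normalization they were CETN3 (-0.0503), MCM2 (-0.11) and E2F1 (-0.00902), with upper quartile scaling POC5 (0.0135), with edgeR or DESeq2 CETN3 (-0.018 and -0.0181), and with both libraries left out CETN3 (-0.11) and POC1A (-0.00398). With 1 library or that pair left out, CETN3 ranged from -0.14 to 0.12, OFD1 from -0.0451 to 0.16, CEP72 from -0.013 to 0.0532, POC5 from -0.0619 to 0.0028 and MCM2 from -0.0107 to 0.0749, POC1A from -0.00398 to 0.0812. The cause was not tested. DESeq2 gave no adjusted p for 5 genes. Groups of 3 libraries limit the precision, and counting depth was high for the members (means of at least 499 normalized counts).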
